A study of Mus musculus with 8 samples.

Results

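The genes described here are NF-kB subunits together with inducible inhibitors and targets of NF-kB: Nfkb1, Nfkb2, Rel, Relb, Nfkbia, Nfkbiz, Tnfaip3, Birc3, Cd83 and Icam1. They were chosen by symbol, and each of the 10 symbols matched 1 of the 52550 genes listed in every library. RNA was sequenced from bone marrow cells sorted by flow cytometry as pre-pro-B or pro-B cells, the earliest steps of the B lineage, from untreated C57BL/6J mice. The mice were wild type (WT) or carried a knockout of the gene for lactoferrin, an iron-binding protein of milk and neutrophil granules (Lf-/-), and WT controls were littermates matched for age. The 7 libraries were 2 of WT pre-pro-B, 2 of Lf-/- pre-pro-B, 1 of WT pro-B and 2 of Lf-/- pro-B cells, and a second sample of WT pro-B cells was not analysed here. The labels number the samples but do not say that each came from a different mouse, and the number of mice per group in the study's methods differs from the number of samples, so the p-values measure the spread between these samples, which may be technical. With 1 WT pro-B library, stage and genotype comparisons rest on an uneven design.

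Expression was read as FPKM, a count of fragments scaled to transcript length and library size. From the height of the smallest steps in genes with a single transcript, 6 libraries held about 11100000 to 15700000 fragments. Replicate 2 of Lf-/- pre-pro-B cells gave no readable step, so its depth is unknown. It also had a nonzero value for only 12172 genes, against 19477 to 20250 elsewhere. Libraries, this one included, were left out in turn, except WT pro-B in the comparisons that need it. Ltf, which encodes lactoferrin, was measured at 2143 and 2731 FPKM in WT pre-pro-B, 2650 FPKM in WT pro-B, 88.2 and 149 FPKM in Lf-/- pre-pro-B, and 168 and 96.0 FPKM in Lf-/- pro-B cells. All 4 Lf-/- libraries lay below all 3 WT libraries, as their labels say.

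The labelled cell type was compared with marker genes. Defining markers of early B cells were present in every library, with Cd79a, a signalling chain of the B cell receptor, at 261 and 203 FPKM in WT pre-pro-B, 86.1 FPKM in WT pro-B, 1518 and 993 FPKM in Lf-/- pre-pro-B, and 1105 and 731 FPKM in Lf-/- pro-B cells. Markers of neutrophils were far higher. The summed level of 15 neutrophil genes took from 24.0% of all FPKM in Lf-/- pre-pro-B replicate 2 to 51.7% in WT pro-B, while 15 early B lineage genes took 0.0235% to 0.341%. The listed neutrophil genes thus held far more of the RNA than the listed early B genes, and the names pre-pro-B and pro-B are used below as the labels give them. In bulk RNA, fewer cells of a type and less RNA per cell cannot be told apart.

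NF-kB is a family of dimeric transcription factors held in the cytoplasm by inhibitor proteins until receptors such as those for TNF, interleukin 1, microbial products, CD40 or BAFF activate the kinases that remove them. Some of the genes it switches on encode its own subunits and inhibitors, which gives the pathway its negative feedback. In the B lineage it is best known for supporting survival and activation, and in neutrophils and macrophages for the inflammatory response.

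The levels of the 10 genes were compared first. Nfkbia was by far the most abundant, with a mean of 379 FPKM over the 7 libraries, and its lowest value, 132 FPKM, was above every value of the other 9 genes. Cd83 came next with a mean of 22.3 FPKM, followed by Nfkbiz (7.41 FPKM), Nfkb2 (4.70 FPKM), Birc3 (4.65 FPKM), Rel (3.74 FPKM), Icam1 (3.30 FPKM), Nfkb1 (3.07 FPKM), Tnfaip3 (2.44 FPKM) and Relb (2.14 FPKM). From Cd83 down, the ranges of neighbours in this order overlapped, so their order is not set apart by the spread over libraries. All 10 genes passed the filter of at least 1 FPKM in at least 2 libraries.

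**Figure D1:**
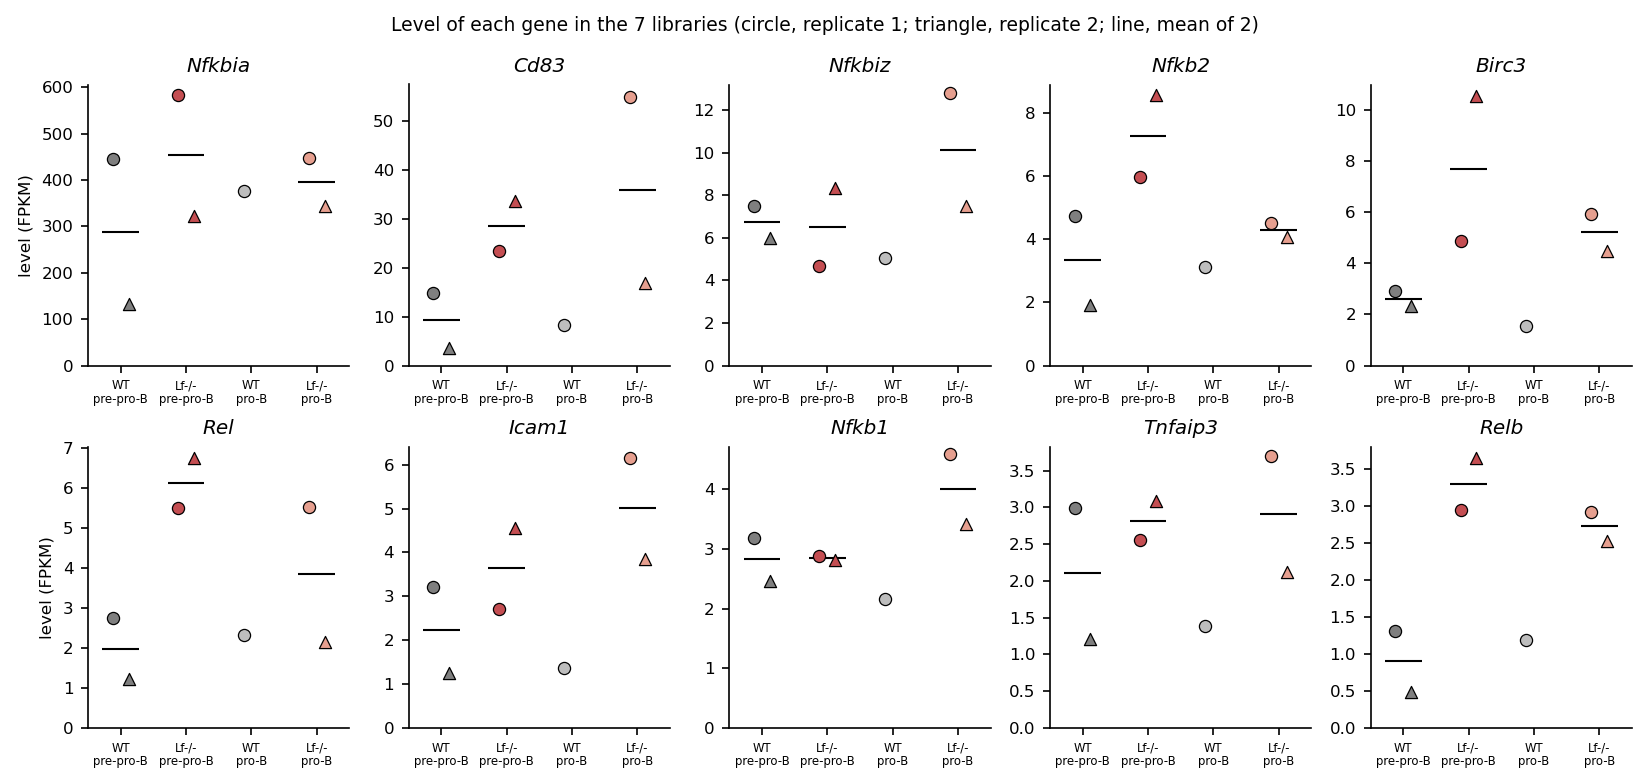
Level (FPKM, linear axis from 0) of each of the 10 genes in the 7 libraries, by genotype and stage; circles are replicate 1, triangles replicate 2, and lines the mean of 2 libraries. For Cd83, Birc3 and Relb all 4 Lf-/- points lie above all 3 WT points, while the groups overlap for the other 7 genes.

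The high and low values of different genes often fell in the same libraries. WT pre-pro-B replicate 2 held the lowest value of 7 of the 10 genes and WT pro-B that of 2. The highest value was in Lf-/- pro-B replicate 1 for 5 genes, in Lf-/- pre-pro-B replicate 2 for 4 and in Lf-/- pre-pro-B replicate 1 for 1. No gene had its highest value in a WT library. The exception at the low end was Nfkbiz, which was lowest in Lf-/- pre-pro-B replicate 1. The typical gene of a library, by its median ratio over libraries, also varied. This ratio was 0.737 in WT pro-B, 0.934 in WT pre-pro-B replicate 2 and 0.910 in Lf-/- pre-pro-B replicate 1. It was 1.315 in Lf-/- pre-pro-B replicate 2 and 1.181 in Lf-/- pro-B replicate 1. The same counts were not made for all genes, so these cannot be read as particular to the 10 genes.

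The subunits that bind DNA were examined first. Relb, the activating partner of p52 in the noncanonical pathway, was at 1.31 and 0.482 FPKM in WT pre-pro-B, 1.18 FPKM in WT pro-B, 2.94 and 3.64 FPKM in Lf-/- pre-pro-B, and 2.92 and 2.53 FPKM in Lf-/- pro-B cells. The genotypes did not overlap, and the lowest Lf-/- value, 2.53 FPKM, was in pro-B replicate 2. Mean and SD were 0.993 ± 0.447 FPKM over the 3 WT and 3.01 ± 0.463 FPKM over the 4 Lf-/- libraries.

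Rel, the c-Rel subunit prominent in lymphocytes, was at 2.75 and 1.21 FPKM in WT pre-pro-B, 2.31 FPKM in WT pro-B, 5.50 and 6.75 FPKM in Lf-/- pre-pro-B, and 5.53 and 2.16 FPKM in Lf-/- pro-B cells. In pre-pro-B cells the genotypes were separate. Lf-/- pro-B replicate 2 lay below the WT pro-B library, so that over both stages the genotypes overlapped. Mean and SD were 2.09 ± 0.793 FPKM for WT and 4.98 ± 1.97 FPKM for Lf-/-.

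Nfkb2, the precursor of the p52 subunit, was at 4.73 and 1.93 FPKM in WT pre-pro-B, 3.12 FPKM in WT pro-B, 5.97 and 8.57 FPKM in Lf-/- pre-pro-B, and 4.53 and 4.07 FPKM in Lf-/- pro-B cells. Both Lf-/- pre-pro-B values exceeded all WT values, but WT pre-pro-B replicate 1 was above both Lf-/- pro-B libraries. Nfkb1, the precursor of p50, was at 3.18 and 2.47 FPKM in WT pre-pro-B, 2.16 FPKM in WT pro-B, 2.89 and 2.81 FPKM in Lf-/- pre-pro-B, and 4.59 and 3.42 FPKM in Lf-/- pro-B cells. It varied least of the 10 genes, by 2.13 times between its lowest and highest library, and in pre-pro-B cells both Lf-/- values lay between the WT values.

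The inhibitors were as follows. Nfkbia encodes IkB-alpha, the inhibitor that NF-kB itself induces and that returns it to the cytoplasm. It was at 445 and 132 FPKM in WT pre-pro-B, 377 FPKM in WT pro-B, 583 and 324 FPKM in Lf-/- pre-pro-B, and 448 and 344 FPKM in Lf-/- pro-B cells. The genotypes overlapped widely, and the WT pre-pro-B libraries differed from each other more than the means of the genotypes did.

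Nfkbiz encodes a nuclear IkB protein that modifies the choice of target genes. It was at 7.51 and 6.00 FPKM in WT pre-pro-B, 5.06 FPKM in WT pro-B, 4.66 and 8.35 FPKM in Lf-/- pre-pro-B, and 12.8 and 7.50 FPKM in Lf-/- pro-B cells. Both Lf-/- pro-B libraries exceeded the WT pro-B library, whereas in pre-pro-B cells the WT values fell between the Lf-/- values.

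Tnfaip3, a ubiquitin-editing enzyme that ends signalling from TNF receptors, was at 2.99 and 1.21 FPKM in WT pre-pro-B, 1.39 FPKM in WT pro-B, 2.56 and 3.09 FPKM in Lf-/- pre-pro-B, and 3.70 and 2.12 FPKM in Lf-/- pro-B cells. The value of WT pre-pro-B replicate 1 lay among those of the Lf-/- libraries, while the other WT libraries lay below all of them. Birc3, a ubiquitin ligase that acts in TNF receptor complexes and holds the noncanonical pathway in check, was at 2.93 and 2.31 FPKM in WT pre-pro-B, 1.54 FPKM in WT pro-B, 4.86 and 10.5 FPKM in Lf-/- pre-pro-B, and 5.94 and 4.46 FPKM in Lf-/- pro-B cells. The genotypes did not overlap, and Lf-/- pre-pro-B replicate 2 stood above the other Lf-/- libraries. Mean and SD were 2.26 ± 0.697 FPKM for WT and 6.45 ± 2.79 FPKM for Lf-/-.

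The remaining pair are surface proteins that NF-kB induces. Cd83, an activation marker of B cells and dendritic cells, was at 14.9 and 3.65 FPKM in WT pre-pro-B, 8.35 FPKM in WT pro-B, 23.4 and 33.7 FPKM in Lf-/- pre-pro-B, and 54.9 and 16.9 FPKM in Lf-/- pro-B cells. It varied most of the 10 genes, by 15.1 times between its lowest and highest library, and the lowest Lf-/- value was close to the highest WT value. Mean and SD were 8.97 ± 5.66 FPKM for WT and 32.2 ± 16.6 FPKM for Lf-/-. Icam1, the adhesion molecule bound by leukocyte integrins, was at 3.21 and 1.26 FPKM in WT pre-pro-B, 1.37 FPKM in WT pro-B, 2.72 and 4.55 FPKM in Lf-/- pre-pro-B, and 6.17 and 3.85 FPKM in Lf-/- pro-B cells. WT pre-pro-B replicate 1 overlapped with Lf-/- pre-pro-B replicate 1, and both Lf-/- pro-B libraries were above the WT pro-B library.

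For 3 of the 10 genes, Cd83, Birc3 and Relb, every Lf-/- library was above every WT library. This was so for 9.87% of the 10793 genes tested. The ratio of the Lf-/- mean to the WT mean was 3.60 for Cd83, 3.03 for Relb, 2.85 for Birc3, 2.38 for Rel and 2.22 for Icam1. It was between 1.32 and 1.77 for Nfkb1, Nfkbia, Nfkbiz, Tnfaip3 and Nfkb2. The number of fragments behind a value, estimated from the depth and the longest coding transcript in the 6 libraries of known depth, was 13 to 88 for Relb, 39 to 175 for Icam1, 64 to 204 for Birc3, 110 to 462 for Rel, 110 to 1524 for Cd83 and 2540 to 10217 for Nfkbia. The low values of Relb are thus the least precise.

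The effect of genotype was then tested in 3 ways, with values as log2(FPKM + 1), where differences of weakly expressed genes come out too small. The comparisons share libraries and are not independent. An exact permutation test of a single gene cannot go below a p of 0.333 with 2 libraries against 2, or 0.0571 with 4 against 3, so the spread was estimated across all genes with limma.

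In pre-pro-B cells, Cd83, Rel and Relb were higher in Lf-/- cells at an unadjusted p under 0.05 in limma. These were 3 of the 10 genes, compared with 2.92% of the 9720 genes tested, and 0 of the 10 passed Benjamini-Hochberg adjustment, as did 0 of the 9720. In this fit Relb met the filter only through the Lf-/- libraries, as WT replicate 2 was at 0.482 FPKM. Its call in pre-pro-B cells therefore cannot count as a test. The log2 difference was 1.76 (standard error 0.68, adjusted p = 0.941) for Cd83, 1.30 (standard error 0.50) for Rel and 1.21 (standard error 0.48) for Relb, with the same adjusted p for each. Birc3 (1.19), Nfkb2 (0.99), Nfkbia (0.84), Icam1 (0.56) and Tnfaip3 (0.36) had smaller differences that did not pass, and Nfkb1 (0.015) and Nfkbiz (-0.086) differed by less than their standard errors. Without WT replicate 2, the differences of Nfkbia and Tnfaip3 were -0.036 and -0.066, so their direction rests on that library. Those of Icam1 and Nfkb2 were 0.11 and 0.51 there, and that of Birc3 was 0.70 without Lf-/- replicate 2. The median of the 10 genes was 0.92 compared with 0.035 for all genes. Leaving out 1 library leaves a group with a single library. Without Lf-/- replicate 1 the difference of Birc3 was 1.68, and without Lf-/- replicate 2 that of Cd83 was 1.503. The differences of Rel and Relb were larger without WT replicate 1 (1.68 and 1.53). Without WT replicate 2, in which 7 of the 10 genes were lowest, Rel was at 0.92, Relb at 0.88 and Cd83 at 0.87. The count of 3 was 1 (Rel) with a pseudocount of 0.1, where Relb and Cd83 were at 1.89 and 1.91. It was also 1 (Rel) without a filter, where they were unchanged at 1.21 and 1.76. With median-ratio scaling it was 3, where Birc3 took the place of Cd83, which was at 1.60.

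In pro-B cells, Cd83 (log2 difference 1.76), Icam1 (1.31) and Birc3 (1.28) had the largest differences, again higher in Lf-/- cells. That of Cd83 was 0.94 without Lf-/- pro-B replicate 1 and 2.58 without replicate 2 of that group. None of the 10 passed, with 0 at an unadjusted p under 0.05 in limma compared with 4.33% of the 10793 genes tested, and 0 of all genes after adjustment. The standard errors were 0.91 for Cd83, 0.60 for Icam1 and 0.57 for Birc3, and their adjusted p was 0.822. The lone WT library was assumed to vary like the other groups. Nfkbiz (0.84), Relb (0.77), Tnfaip3 (0.68), Nfkb1 (0.65), Rel (0.45), Nfkb2 (0.36) and Nfkbia (0.057) made up the rest. The median was 0.73 for the 10 genes and 0.48 for all genes, so much of the median difference was shared by genes at large. With median-ratio scaling, which sets the libraries equal at their typical gene, the medians were 0.27 and 0.0059, and Nfkbia, Nfkb2 and Rel changed sign. Birc3 and Icam1 stayed at 1.28 and 1.31 without either Lf-/- pre-pro-B library, as these libraries enter only the estimated spread of this comparison.

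Over both stages, with stage as a covariate, all 10 genes had a positive difference, as did 66.8% of all genes, and 5 passed an unadjusted p of 0.05 in limma: Birc3, Cd83, Relb, Rel and Icam1. With median-ratio scaling 9 of the 10 were positive. Of the 10793 genes tested, 7.17% passed in either direction and 6.48% were higher in Lf-/- cells. After adjustment 0.185% of all genes passed and 0 of the 10. Birc3 had a log2 difference of 1.22 (standard error 0.34, adjusted p = 0.374), Cd83 one of 1.76 (standard error 0.53, adjusted p = 0.418) and Relb one of 1.03 (standard error 0.31, adjusted p = 0.437). For Rel it was 0.96 (standard error 0.40, adjusted p = 0.675) and for Icam1 0.86 (standard error 0.38, adjusted p = 0.689), with a 95% interval from 0.000965 to 1.72 for the latter. Nfkb2 (0.74), Nfkbia (0.53), Tnfaip3 (0.49), Nfkbiz (0.28) and Nfkb1 (0.27) did not pass.

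**Figure D2:**
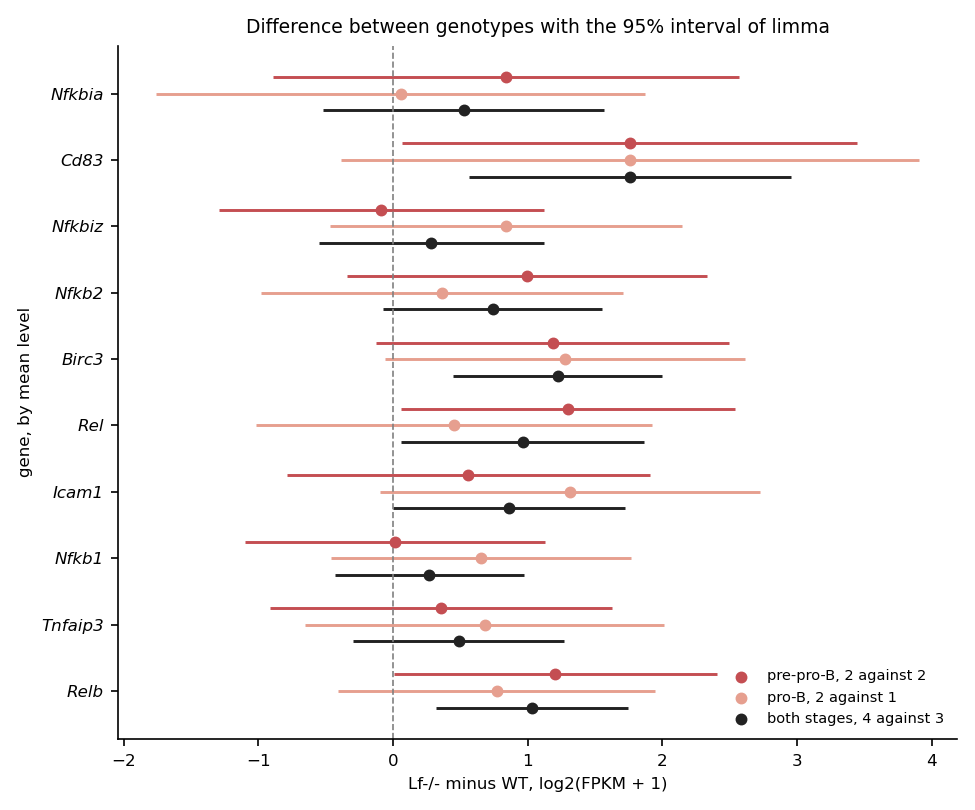
Difference between Lf-/- and WT in log2(FPKM + 1) for each gene, with the 95% interval of limma, in pre-pro-B, in pro-B and over both stages. Over both stages the intervals of Cd83, Birc3, Rel, Icam1 and Relb lie above 0, with that of Icam1 starting at 0.000965, and the intervals of the other 5 genes include 0.

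The shift of all genes was large enough to matter for these differences. The median difference of all genes over both stages was 0.21, and -0.066 with median-ratio scaling. Relative to that median, the differences of Cd83, Birc3 and Relb were 1.55, 1.02 and 0.83 as deposited and 1.49, 1.02 and 0.87 with median-ratio scaling, where these 3 still passed an unadjusted p of 0.05 and Rel and Icam1 did not. Relative to the same median, Rel was 0.76 in both and Icam1 0.65 and 0.67, so these changed as little. Nfkb1 (0.064) and Nfkbiz (0.077) lay close to the median of all genes, and under median-ratio scaling the difference of Nfkbiz was -0.035. Among all genes past an unadjusted p of 0.05, 90.3% were higher in Lf-/- cells as deposited and 53.9% with median-ratio scaling, and for pro-B cells alone these shares were 96.6% and 69.1%. For pre-pro-B cells alone they were 68.3% and 63.0%. The count of 5 genes stayed at 5 without Lf-/- pre-pro-B replicate 2 and was 2 (Cd83 and Birc3) without WT pre-pro-B replicate 2 and 3 without Lf-/- pro-B replicate 1. Cd83 and Birc3 passed in 12 of 12 alternatives, Relb in 10 of the 11 in which it was tested, Rel in 7 of 12 and Icam1 in 5 of 12.

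Stage was compared next, as pro-B minus pre-pro-B cells with genotype as a covariate. The 10 genes differed little, from -0.45 (Birc3) to 0.20 (Nfkbiz) on the log2 scale, with a median of 0.024. In limma 0 of the 10 had an unadjusted p under 0.05, compared with 2.41% of the 10793 genes, and the lowest adjusted p was 0.947. Of all genes, 51.9% of those past an unadjusted p of 0.05 were higher in pro-B cells as deposited and 62.1% with median-ratio scaling.

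Whether the effect of genotype itself differed between the stages was tested with the interaction. The estimates ran from -0.85 for Rel, whose difference was larger in pre-pro-B cells, to 0.92 for Nfkbiz, whose difference was larger in pro-B cells. In limma 0 of the 10 passed an unadjusted p of 0.05, compared with 2.74% of all genes, and the lowest adjusted p was 0.990. The standard errors, 0.80 for Rel and 0.71 for Nfkbiz, were close to the estimates, so a difference between the stages was not detectable here, and the data do not show that the stages were alike. The share of genes past an unadjusted p that were higher was 92.2% as deposited and 69.9% with median-ratio scaling.

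The genes around the 10 in the same pathway were described from lists. Counts of genes past an unadjusted p stand beside 6.48% higher and 75 lower among all 10793 genes, and the excess of higher genes among all depends on the scaling, as given above. Of 11 further subunits and kinases, 8 could be tested over both stages and 0 passed an unadjusted p of 0.05 in limma, or an adjusted one, with a median of 0.56. Rela, the main activating subunit and the most abundant of them, was at 14.8 and 14.5 FPKM in WT pre-pro-B, 9.27 FPKM in WT pro-B, 13.9 and 43.0 FPKM in Lf-/- pre-pro-B, and 23.3 and 18.8 FPKM in Lf-/- pro-B cells. Only Lf-/- pre-pro-B replicate 2 stood well apart, and the log2 difference was 0.86 (standard error 0.40). Without that library it was 0.51 (standard error 0.36). The 8 differences of the list then ran from -0.37 to 0.51, in place of -0.44 to 0.86.

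Of 16 other inhibitors and feedback genes, 10 were tested, 3 were higher and 0 lower in Lf-/- cells at an unadjusted p under 0.05, and 0 passed adjustment in limma (median 0.55). These 3 were Otulin (1.11), which removes linear ubiquitin chains, and the IkB proteins Nfkbid (1.06) and Nfkbib (0.88). Lf-/- pre-pro-B replicate 2 held the highest value of Otulin, 148 FPKM compared with 48.4 to 55.2 FPKM in the other Lf-/- libraries, and without it the differences of Otulin (0.66) and Nfkbib (0.68) did not pass an unadjusted p of 0.05. As 2 other genes of the list then passed, the count stayed at 3. Of 28 receptors and adaptors upstream of NF-kB, 24 were tested and 5 were higher and 0 lower (median 0.27). The largest differences were those of Tnfrsf13c, the BAFF receptor of B cells (2.32, standard error 0.35, adjusted p = 0.0526 in limma), of Cd40, which receives T cell help (1.77), and of Tnfrsf13b, another receptor of the BAFF family (1.20). Tnfrsf13c was at 9.23 and 5.14 FPKM in WT pre-pro-B, 2.89 FPKM in WT pro-B, 40.8 and 25.4 FPKM in Lf-/- pre-pro-B, and 28.8 and 20.3 FPKM in Lf-/- pro-B cells, with no overlap of the genotypes. Cd40 was at 1.71 and 1.08 FPKM in WT pre-pro-B, 0.337 FPKM in WT pro-B, 2.84 and 19.2 FPKM in Lf-/- pre-pro-B, and 3.72 and 2.48 FPKM in Lf-/- pro-B cells, so 1 library stood far above the others. Without it the difference was 1.14 for Cd40 (adjusted p = 0.120 in limma) and 2.55 for Tnfrsf13c (adjusted p = 0.00602 in limma), and for both the other 3 Lf-/- libraries lay above all WT libraries.

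Of 28 other inducible targets, 24 were tested, 4 were higher, 2 were lower and 0 passed adjustment in limma (median 0.52). Among the higher ones were the chemokine-binding receptor Ccrl2 (1.27) and the transcription factor Irf1 (1.13), and among the lower ones the chemokine Cxcl10 (-1.51). Cxcl10 was listed at 0 in Lf-/- pre-pro-B replicate 2, and without that library its difference was -0.73 and did not pass an unadjusted p of 0.05. Ccl3, a chemokine and the most abundant of the list, was at 84.6 and 93.8 FPKM in WT pre-pro-B, 76.3 FPKM in WT pro-B, 60.8 and 182 FPKM in Lf-/- pre-pro-B, and 288 and 175 FPKM in Lf-/- pro-B cells, and did not pass (0.76). Of 18 immediate early genes, which respond to many signals besides NF-kB, 17 were tested and 8 were higher and 0 lower (median 0.96), led by Jund (1.90), Btg2 (1.29), Junb (1.27) and Ier5 (1.26), with 0 past adjustment. Without Lf-/- pre-pro-B replicate 2, Jund (2.20, adjusted p = 0.0218 in limma) and Btg2 (1.69, adjusted p = 0.0459 in limma) passed it, as did 123 of all 10529 genes. All these medians stand beside 0.80 for the 10 genes and 0.21 for all genes.

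**Figure D3:**
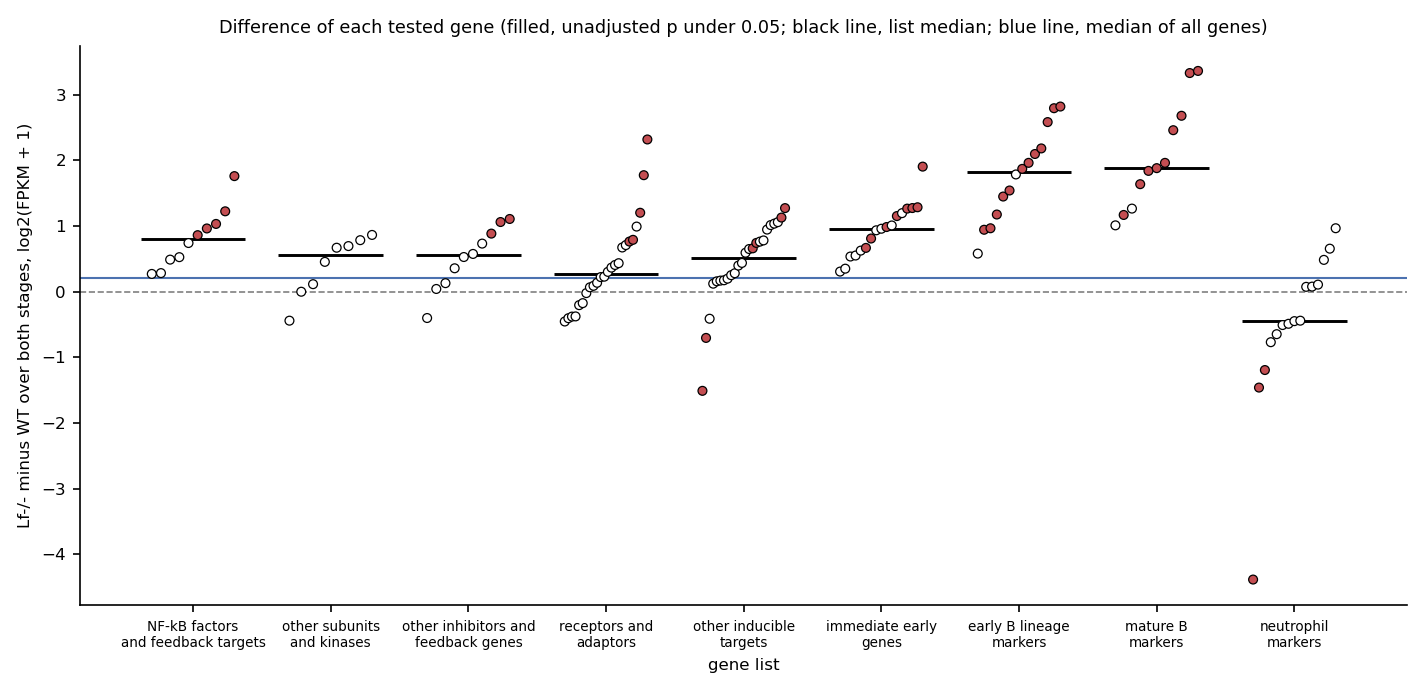
Difference between Lf-/- and WT over both stages, in log2(FPKM + 1), of each tested gene in the lists; filled points passed an unadjusted p of 0.05 in limma, black lines are list medians, and the blue line is the median of all genes at 0.21. The medians of the early B lineage (1.83) and mature B markers (1.88) lie above that of the NF-kB genes (0.80), and the median of the neutrophil markers lies below 0 (-0.45).

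Marker genes of the cell types that the samples could hold moved with genotype as well. Of the early B lineage list, 14 of 15 genes were tested, all 14 had a positive difference, and 12 were higher at an unadjusted p under 0.05 in limma. A gene among the 12 passed the filter only through the Lf-/- pre-pro-B libraries (1.41 and 1.81 FPKM), so its call cannot count as a test. The summed level was 520 and 478 FPKM in WT pre-pro-B, 196 FPKM in WT pro-B, 2832 and 2188 FPKM in Lf-/- pre-pro-B, and 2508 and 1426 FPKM in Lf-/- pro-B cells, with Cd79a the most abundant. The mature B list (11 of 12 tested, 9 higher, 3 after adjustment: Ms4a1, Fcmr and Ighd) summed to 1405 and 1694 FPKM in WT pre-pro-B, 1146 FPKM in WT pro-B, 5132 and 4482 FPKM in Lf-/- pre-pro-B, and 5687 and 5769 FPKM in Lf-/- pro-B cells, with Cd74 the most abundant. Without Lf-/- pre-pro-B replicate 2, more of the mature B list passed adjustment in limma, among them Cd74 (adjusted p = 0.0113) and Ccr7 (adjusted p = 0.0458). Of all genes, 123 of 10529 then passed, in place of 20 of 10793. For both lists every Lf-/- library was above every WT library, as for Cd83, Birc3 and Relb. No defining marker of either list was at 0 in any library.

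The dendritic cell list summed to 494 and 301 FPKM in WT pre-pro-B, 178 FPKM in WT pro-B, 2343 and 3122 FPKM in Lf-/- pre-pro-B, and 1089 and 1068 FPKM in Lf-/- pro-B cells, with 4 of the 6 genes tested higher. Most of this was Ly6d, a gene that B lineage progenitors also express. Of its defining markers, Siglech, a lectin of plasmacytoid cells, was at 3.94 and 7.31 FPKM in WT pre-pro-B, 7.76 FPKM in WT pro-B, 1.98 and 43.8 FPKM in Lf-/- pre-pro-B, and 16.7 and 34.04 FPKM in Lf-/- pro-B cells. The genotypes overlapped through the first of the Lf-/- pre-pro-B libraries, and Itgax was listed at 0 in the second. The neutrophil list, led by S100a8, summed to 300550 and 289214 FPKM in WT pre-pro-B, 431146 FPKM in WT pro-B, 307462 and 166523 FPKM in Lf-/- pre-pro-B, and 249794 and 281532 FPKM in Lf-/- pro-B cells. Of its 15 genes, 3 were lower (Ltf, Elane and Mpo) and 0 higher, and 6 of the 15 differences were positive, compared with 66.8% of all genes. Ltf is the gene knocked out, so its lower level was set by the design and is no result about neutrophil genes. It is among the 15 in each of these counts. By stage, 1 of 15 was positive in pre-pro-B cells (52.0% of all genes) and 6 of 15 in pro-B cells (87.0% of all genes), where 1 was higher and 1 lower at an unadjusted p under 0.05 in limma. Each of its defining markers, Elane, Mpo, Camp, Ngp and Ly6g, was above 193 FPKM in every library.

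**Figure D4:**
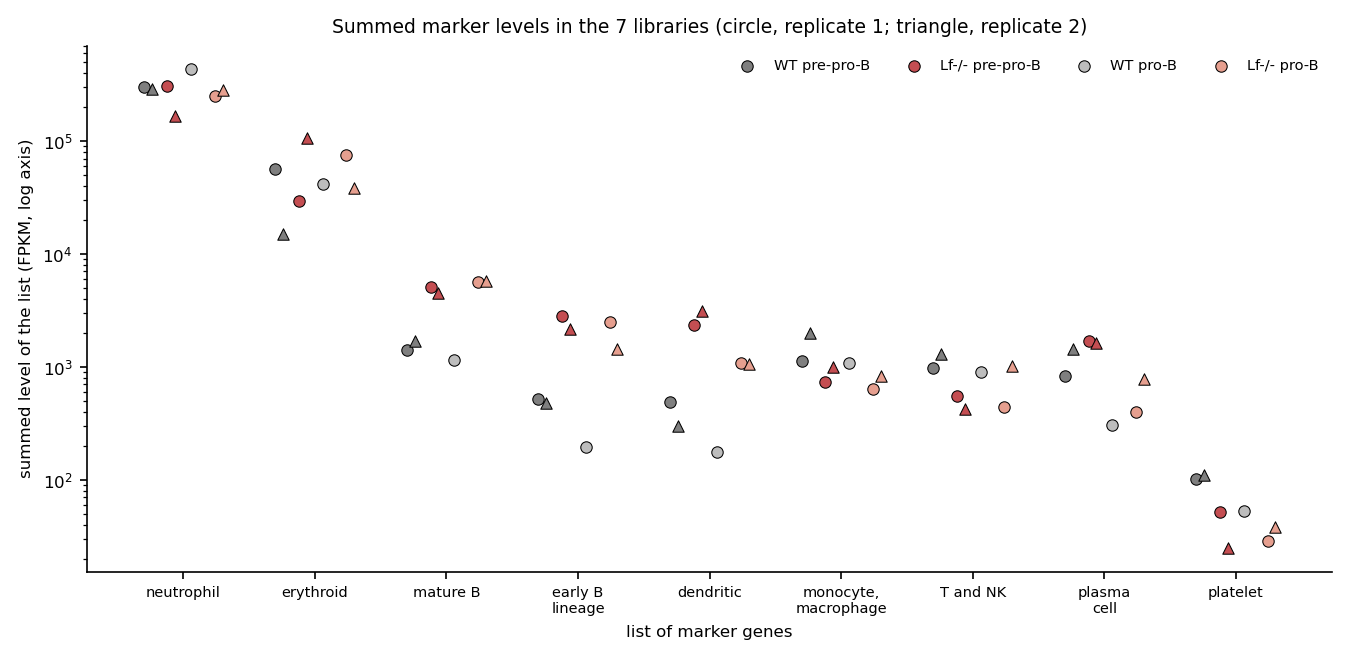
Summed FPKM (log axis) of each list of marker genes in the 7 libraries, by genotype and stage; circles are replicate 1 and triangles replicate 2. The Lf-/- libraries lie above the WT libraries for the mature B (4482 to 5769 compared with 1146 to 1694), early B lineage (1426 to 2832 compared with 196 to 520) and dendritic lists, while neutrophil genes are the most abundant in all 7 libraries.

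Other lists moved less or in the opposite direction. Monocyte and macrophage genes, led by Ly6c2, summed to 1087 to 1991 FPKM in WT and 636 to 991 FPKM in Lf-/- libraries, with 2 of 11 lower and 0 higher. Most of this sum was Ly6c2 alone. The median difference of the list was -0.013 over both stages with 5 of 11 positive, -0.395 in pre-pro-B cells with 4 of 11, and 0.34 in pro-B cells with 8 of 11, each below the median of all genes (0.21, 0.035 and 0.48). Platelet genes, led by Pf4, summed to 52.8 to 111 FPKM in WT and 25.01 to 51.9 FPKM in Lf-/- libraries, with 1 of 5 lower, and Pf4, Itga2b and Ppbp were listed at 0 in Lf-/- pre-pro-B replicate 2. T and NK genes, led by Nkg7, overlapped (907 to 1297 and 424 to 1015 FPKM, with 1 of 9 tested lower). In that library 5 of the 10 genes of the list, Klrb1c among them, were listed at 0. Nkg7 was the lower gene and made up most of the sum, while the other 8 had positive differences (median of the list 0.55). In pro-B cells 5 of 9 were higher at an unadjusted p under 0.05 in limma (median 1.29, compared with 451 of 10793 genes higher and a median of 0.48 for all). Only 3 of the list passed the filter in the pre-pro-B fit. The others passed it through pro-B libraries, of which 1 is WT, so this count cannot be read as a result about the list. Erythroid genes, led by Hba-a1, overlapped (14965 to 56127 and 29714 to 105904 FPKM, with 0 of 8 past an unadjusted p of 0.05 in limma), as did plasma cell genes, led by Jchain (307 to 1431 and 399 to 1707 FPKM, with 2 of 5 tested higher). The part of any of these cell types in the differences of the NF-kB genes was not tested.

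The likeness of the 10 genes to each other was measured as the root mean square difference of their log2(FPKM + 1) values over the 7 libraries, after each gene was centred on its own mean. The closest pair was Nfkbiz and Nfkb1 (0.238), followed by Tnfaip3 and Nfkb1 (0.244), Icam1 and Tnfaip3 (0.266), and Nfkb2 and Relb (0.267). Nfkb1 itself was only 0.246 from a flat line, so its closeness to others reflects low variation. Nfkb2 and Relb encode the partners of the noncanonical pathway. Cd83 was farthest from 8 of the other 9 genes and at most 0.933 away, from Nfkb1. The exception was Birc3, which was farthest from Nfkbia (0.787). The mean profile of the 10 genes was lowest in WT pre-pro-B replicate 2 (-0.86) and WT pro-B (-0.50), near 0 in WT pre-pro-B replicate 1 (-0.017) and Lf-/- pro-B replicate 2 (0.021), and highest in Lf-/- pro-B replicate 1 (0.61), Lf-/- pre-pro-B replicate 2 (0.53) and Lf-/- pre-pro-B replicate 1 (0.22). One library of each genotype thus lay near the middle.

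The 5 other genes nearest to this mean profile, of 9876 with a mean of at least 1 FPKM, were Pim3 (0.0961), Wars (0.116), Kmt2e (0.120), Zfp622 (0.124) and Ecsit (0.131), compared with a median of 0.561 for all these genes. They lie below that median because they were picked as the nearest. The 10 genes that made the profile lay from 0.188 (Tnfaip3) to 0.620 (Cd83) from it, so Cd83 was farther than the median gene. Distances between pairs of other genes were not computed. Pim3 encodes a serine/threonine kinase and was at 7.28 and 2.80 FPKM in WT pre-pro-B, 4.05 FPKM in WT pro-B, 8.34 and 9.78 FPKM in Lf-/- pre-pro-B, and 11.02 and 6.20 FPKM in Lf-/- pro-B cells. As for the 10 genes on average, its lowest value was in WT pre-pro-B replicate 2 and its highest in Lf-/- pro-B replicate 1.

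**Figure D5:**
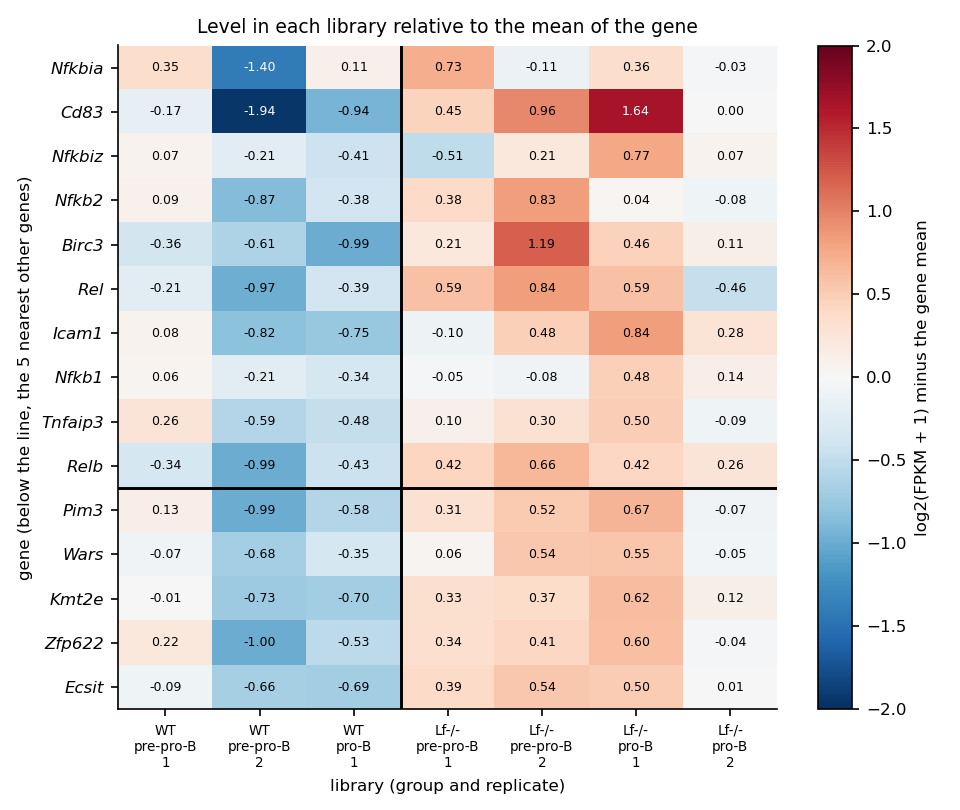
Level of each gene in each library, as log2(FPKM + 1) minus the mean of that gene over the 7 libraries (colour and number); the 10 NF-kB genes are above the line and the 5 nearest other genes below it, with WT libraries on the left. Values in WT pre-pro-B replicate 2 are negative for all 15 genes, down to -1.94 for Cd83, and those in Lf-/- pro-B replicate 1 are positive for all 15, up to 1.64 for Cd83.

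The sequence before the start sites of the 10 genes was searched on both strands for the 10-base pattern GGGRNWYYCC. It is a consensus of the kappaB element that NF-kB dimers bind. In it R is A or G, Y is C or T, W is A or T, and N is any base. Sequences were those of RefSeq on GRCm38.p6, 250 bases before each start, and 6 of the 10 genes had 9 such windows. A match was found in 6 of these 9 windows, compared with 3.90% of 32851 windows of all genes, and the 6 belong to Nfkbia, Rel, Nfkb2 and Tnfaip3. The 10 genes were chosen as NF-kB factors and targets, so an excess of matches follows from the choice. It is not a result about these libraries. The 9 windows are also not independent, as some belong to the same gene and windows of Nfkb2 overlap. Nfkb1, Relb, Cd83 and Nfkbiz were not searched. A pair with a match and a pair without one are shown, each 5′ to 3′ on the strand of the gene and ending just before the start site, with matches in capitals. They are Nfkbia (chr12:55492648-55492897, minus strand), the most abundant gene, and Rel (chr11:23770970-23771219, minus strand), a subunit, and then Birc3 (chr9:7873171-7873420, minus strand) and Icam1 (chr9:21015690-21015939, plus strand), both past an unadjusted p of 0.05 over both stages.
Nfkbia: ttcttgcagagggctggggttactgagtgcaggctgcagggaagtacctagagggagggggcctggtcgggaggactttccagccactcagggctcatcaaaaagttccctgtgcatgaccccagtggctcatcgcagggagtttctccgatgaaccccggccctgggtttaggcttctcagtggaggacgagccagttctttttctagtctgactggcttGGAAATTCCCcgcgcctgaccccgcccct
Rel: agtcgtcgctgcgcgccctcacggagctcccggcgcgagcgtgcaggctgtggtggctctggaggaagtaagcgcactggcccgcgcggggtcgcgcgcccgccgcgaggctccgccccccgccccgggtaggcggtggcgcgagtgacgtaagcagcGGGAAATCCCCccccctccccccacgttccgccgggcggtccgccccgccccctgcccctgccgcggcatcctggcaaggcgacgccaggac
Birc3: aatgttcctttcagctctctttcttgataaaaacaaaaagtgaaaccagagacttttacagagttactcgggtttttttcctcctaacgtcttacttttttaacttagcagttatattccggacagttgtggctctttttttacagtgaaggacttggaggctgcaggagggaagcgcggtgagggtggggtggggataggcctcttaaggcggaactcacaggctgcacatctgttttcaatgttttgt
Icam1: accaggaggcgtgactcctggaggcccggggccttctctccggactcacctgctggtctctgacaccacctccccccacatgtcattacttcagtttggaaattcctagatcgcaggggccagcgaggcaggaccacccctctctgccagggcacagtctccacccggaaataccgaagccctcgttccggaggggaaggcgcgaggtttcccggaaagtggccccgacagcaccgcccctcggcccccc
The match of Nfkbia lay from -29 to -20 and those of Rel, which overlap, from -92 to -82 relative to the start. Nfkb2 had matches in all 3 of its windows, at -39, -38 and -11 in the first, and Tnfaip3 had them at -125 and -12 in 1 of its 2 windows. Of the 4 genes with a match, Rel passed an unadjusted p of 0.05 in limma over both stages and Nfkbia, Nfkb2 and Tnfaip3 did not (adjusted p of 0.675, 0.718, 0.689 and 0.695). Birc3 and Icam1, with no match to this pattern in their windows, both passed. The Icam1 window holds ggaaattcct, which misses the pattern, as read on the other strand, only at its last base. Sequences that depart from the pattern were not counted, so a window without a match may still hold a kappaB site. A match is a string of letters and was not tested for binding.

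In the genome (GRCm38, GENCODE M21), the 10 genes are all protein-coding and lie on 9 chromosomes. Nfkb1 is on chromosome 3 (135584655 to 135691547), Relb on chromosome 7 (19606217 to 19629438), Birc3 (7848699 to 7873186) and Icam1 (21015985 to 21028817) on chromosome 9, and Tnfaip3 on chromosome 10 (19000910 to 19015657). Rel is on chromosome 11 (23736847 to 23770970), Nfkbia on chromosome 12 (55489410 to 55492647), Cd83 on chromosome 13 (43784775 to 43803132), Nfkbiz on chromosome 16 (55811375 to 55838899) and Nfkb2 on chromosome 19 (46304320 to 46312385). Nfkb2 overlaps AC114539.1 and Psd and Icam1 overlaps Gm47079, all on the opposite strand, and Nfkb1 overlaps Gm43430 on its own strand. Whether counting used strand is not given in the sources used here, so the values of Nfkb2, Icam1 and Nfkb1 may include fragments of these neighbours.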

How the data were processed

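RNA was sequenced on a NovaSeq instrument, and the authors deposited 1 table per library with 1 value per gene. The deposited values were read as FPKM from the values themselves: they are not whole numbers and their sums differ between libraries, from 694578 to 834693. The submitters' processing notes name TopHat, Cufflinks, HTSeq, DESeq and GRCm38, with no version or role. Because FPKM are relative to the library total, an abundant group of genes lowers all others. Depth was estimated from the steps of FPKM times length, for genes that have only 1 transcript, 800 bases or longer, in 6 of 7 libraries, and intervals for counting error were not computed.

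Groups were taken from the labels. Of 52550 genes, 52403 matched GENCODE M21. Values were transformed to log2(FPKM + 1), a gene was kept if 2 or more libraries of a fit had 1 FPKM or more, and p-values (two-sided) came from limma 3.58.1, run in R 4.3.3 with the variance allowed to follow the mean. They were adjusted over all genes tested by the Benjamini-Hochberg method. The pre-pro-B comparison used its own 4 libraries, and the others all 7, with the pro-B comparison and the interaction taken from a fit of 4 group means. The pre-pro-B and both-stage fits were tested on simulated data with the observed spread and a known set of genes raised by a log2 difference of 2.00. The median recovered was 2.01 in pre-pro-B cells (9724 genes) and 1.96 over both stages (10315 genes), and 0% and 54.5% of the raised genes passed adjustment in limma. At a log2 difference of 1 these shares were 0% and 0%, and at 4 they were 66.5% and 91.5%. Python 3.11.15 with numpy 2.4.6, pandas 2.3.3 and matplotlib 3.10.9 was used for other steps.

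The alternatives were median-ratio scaling, a pseudocount of 0.1, no filter, at least 1 FPKM in every library, the replicate number as a block, a fit of pre-pro-B cells over 7 libraries, and each library left out. All 10 genes are named. From each of the 5 pathway and 9 marker lists, the most abundant gene, the defining markers and up to 4 genes with the largest difference in pre-pro-B cells or over both stages could be named. Of other genes, the 5 nearest to the mean profile and Ltf are named. The members and lists were chosen with earlier results of these data known. Adjusted calls of single genes in the early B lineage list are not reported.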

Additional observations from a re-analysis of the deposited data

How the results depend on the processing

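The difference over both stages kept its sign in all alternatives for 9 of the 10 genes. It turned for Nfkbiz with median-ratio scaling (-0.035), and with 1 library left out it ranged from -0.086 to 0.56. A kept sign did not mean a kept size. Without WT pre-pro-B replicate 2, Nfkbia was at 0.011 and Nfkb2 at 0.44. Nfkb1 was at 0.015 without WT pro-B and at 0.0073 with median-ratio scaling. The number of the 10 genes past an unadjusted p of 0.05 over both stages, 5, was 3 with median-ratio scaling and 2 to 5 with 1 library left out. All genes past an adjusted p of 0.05, 20, were 7 with median-ratio scaling, 9 with a pseudocount of 0.1, 0 without a filter (1154 unadjusted), 63 with at least 1 FPKM in every library and 0 to 123 with 1 library left out, and all genes past an unadjusted p, 774, were 425 to 3033. In pre-pro-B cells the count of 3 was 1 with a pseudocount of 0.1, 1 without a filter and 0 to 4 with 1 library left out, and all genes past an unadjusted p, 284, were 649 without a filter, 528 in the fit over 7 libraries and 140 to 4416. Without Lf-/- replicate 1, a fit of 2 libraries against 1 in which the lone library is assumed to vary like the pair, Birc3 (adjusted p = 0.0199) and Relb (adjusted p = 0.0448) passed adjustment in limma, as did 3338 of all genes. Leaving out WT replicate 1 or 2 gave 16 and 24 adjusted genes in place of 0.

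In pro-B cells the count of 0 was 1 with a pseudocount of 0.1, 2 with at least 1 FPKM in every library and 0 to 2 with 1 library left out, and all genes past an unadjusted p, 467, were 269 with median-ratio scaling, 1979 without a filter (256 of them adjusted in limma, in place of 0) and 137 to 2318. For stage the count of 0 was 0 to 1 with 1 library left out. The gene was Birc3, without Lf-/- pre-pro-B replicate 1, where 1763 of all 10581 genes passed as well. All genes, 260, were 626 without a filter, 156 with at least 1 FPKM in every library and 139 to 1763 with 1 library left out. For the interaction the count stayed at 0, and all genes, 296, were 136 with median-ratio scaling, 195 with a pseudocount of 0.1, 1608 without a filter (122 of them adjusted in limma, in place of 0), 152 with at least 1 FPKM in every library and 90 to 2920 (561 adjusted without Lf-/- pre-pro-B replicate 1). Relb was below the filter of 1 FPKM in every library.

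Signs also turned elsewhere. With median-ratio scaling they did so for Nfkb1 in pre-pro-B (-0.104), and Nfkbia (-0.59), Nfkb2 (-0.15) and Rel (-0.026) in pro-B cells. Under the same scaling Relb turned for stage, from -0.026 to 0.040. For the interaction, Cd83 turned from 0.0029 to -0.44 and Birc3 from 0.090 to -0.21. With 1 library left out, the range in pre-pro-B cells was -0.036 to 1.71 for Nfkbia, -0.45 to 0.28 for Nfkbiz, -0.066 to 0.78 for Tnfaip3 and -0.12 to 0.15 for Nfkb1, and in pro-B cells -0.13 to 0.25 for Nfkbia and -0.070 to 0.98 for Rel. The cause was not tested. With the sign kept, single genes lost an unadjusted p under 0.05 in 26 cases and gained one in 13.

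Samples with the same number did not deviate together (correlations of -0.0127, 0.0393 and 0.0532 over 10793 genes), WT pro-B not being in this check, and whether they share a mouse or batch was not tested further. With the replicate block, only Cd83 of the 10 genes passed an unadjusted p of 0.05 in pre-pro-B, and Rel and Relb no longer did, at unchanged differences of 1.30 and 1.21 (532 of all genes, 65 of them adjusted in limma). With the block Cd83 came to pass unadjusted for pro-B cells, where the count went from 0 to 1, Icam1 no longer passed over both stages, leaving 4, and 403 of all genes passed for stage and 456 for the interaction.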
